A study of Homo sapiens with 4 samples.

Results

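The cytokine and NF-kB feedback genes described here are 10 of the 7698 protein-coding genes in the table. They were chosen by symbol: the colony-stimulating factors CSF2 and CSF3, the interleukin-6 family cytokines IL11, LIF and IL6, the chemokines CXCL1 and CXCL8, the NF-kB inhibitors TNFAIP3 and NFKBIA, and TNFAIP2, a gene named for its induction by TNF. The choice was made with earlier results of these data known. All 10 were in the table and all 10 passed the filter on low values. The cells were MDA-MB-231, an established human triple-negative breast cancer line with a mesenchymal appearance. The groups were siPCBP2 cells, in which an interfering RNA targeted PCBP2 (2 libraries), and untreated cells (2 libraries). PCBP2 is a poly(C)-binding protein that acts on the stability, processing and translation of RNA. The comparison asks which transcripts differ when its level is reduced. No control RNA is named for the untreated cells, so transfection and silencing cannot be told apart. The treatment label of the siPCBP2 cells names PCBP2 itself as what was transfected, against their titles and source names. The table does not bear that label out: PCBP2 measured 16.6 and 16.7 FPKM in siPCBP2 cells, against 101.4 and 92.9 FPKM in untreated cells (log2 fold change -2.47, adjusted p = 0.0119 by limma). With any 1 library left out, its log2 fold change was at most -2.41 and its adjusted limma p between 0.0559 and 0.326.

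NF-kB is a family of transcription factors held in the cytoplasm by inhibitor proteins until a signal, such as TNF or interleukin-1, activates the kinase complex that marks the inhibitors for destruction. Among the genes it then switches on are secreted cytokines, which recruit and feed myeloid cells, and its own inhibitors, which end the response. Many cytokine mRNAs carry AU-rich elements in the 3′ UTR, which mark them for rapid decay, so that their levels depend on transcription and on stability. MDA-MB-231 cells are known for steady NF-kB activity without added stimulus.

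The header names no unit, and the values were read as FPKM, which corrects for gene length and library total and lets levels of different genes be set side by side. Summed FPKM was 378204 and 352964 in the siPCBP2 libraries and 371693 and 376347 in the untreated libraries. The number of reads is not known, so no counting interval was given. Of markers of the line, VIM, CD44 and AXL were listed, while ESR1, PGR and CDH1 were not analysed here. AXL, a receptor kinase of mesenchymal cells and the least abundant of the 3, measured 256.3 and 228.3 FPKM in siPCBP2 cells and 218.1 and 234.2 FPKM in untreated cells. The growth factor receptor gene ERBB2 measured 16.7 and 21.3 FPKM in siPCBP2 cells and 15.2 and 11.9 FPKM in untreated cells. Of 14 immune and blood markers 1 was listed, CD68, with 35.2 and 38.7 FPKM in siPCBP2 cells and 28.7 and 29.1 FPKM in untreated cells. Of 14 stromal, endothelial and fat markers 1 was listed, FABP4, with 1.59 and 3.41 FPKM in siPCBP2 cells and 0.719 and 0.489 FPKM in untreated cells. Both were higher in siPCBP2 cells at an unadjusted p under 0.05 by limma, and the part of such cells in the results was not tested. The other markers of these lists were not analysed here. In a bulk sample, fewer cells that express a gene and less of its RNA per cell cannot be told apart.

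The secreted factors share a feature that the choice by symbol did not use and that was looked for after their values were seen. The AU-rich 7-mer TATTTAT, read on the transcript strand, occurred in the annotated 3′ UTR of 9 of the 10 genes and in 31.3% of the 3′ UTRs of 7579 listed genes. At least 3 copies occurred in 7 of the 10, all of them secreted factors, against 5.40% of listed genes. Overlapping copies were counted. The densest 30-base stretch is shown for the genes on which the results turn, from transcripts of GENCODE release 29 on GRCh38, with each 7-mer in capitals.

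CSF2: ttaaaaTATTTATTTATTTATTTATttaag
CSF3: atgTATTTATctctatttaaTATTTATgtc
IL11: ccagatctTATTTATTTATTTATttcagta
CXCL1: aagtcttcTATTTATTTATTTATtcattag
CXCL8: aaccTATTTATTATTTATgTATTTATttaa
TNFAIP3: tgtaattcacttTATTTATtttattacaaa

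These stretches lie at chr5:132076074-132076103 (plus strand) for CSF2, at chr17:40016979-40017008 (plus) for CSF3 and at chr19:55365943-55365972 (minus) for IL11. Those of CXCL1 and CXCL8 lie at chr4:73870673-73870702 and chr4:73743109-73743138, and that of TNFAIP3 at chr6:137882297-137882326, all on the plus strand. CSF2 had 7 copies in a 3′ UTR of 318 bases, the highest density of the 10 at 22.0 per kilobase. IL11 also had 7 copies, in 1618 bases, or 4.33 per kilobase. LIF had 5, CXCL1 and CXCL8 had 4 each, CSF3 and IL6 had 3 each, and TNFAIP3 and NFKBIA had 2 each. TNFAIP2 had none in 2079 bases. Over all listed genes the density was 0.329 per kilobase.

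No gene of the 10 passed the threshold of an adjusted p under 0.05 by limma, where 0.052% of the 7689 genes tested did; adjusted p-values of the 10 ran from 0.151 to 0.728. At an unadjusted p under 0.05, 4 were lower in siPCBP2 cells (CSF3, IL11, CXCL1 and TNFAIP2), where 9.73% of all genes tested were lower. At the same p, 2 were higher in siPCBP2 cells (CSF2 and TNFAIP3), where 5.67% of all genes tested were higher. Over all genes this was 748 lower and 436 higher, and after quantile normalization the split was 612 lower and 579 higher. After scaling to 1 common total it was 616 lower and 551 higher. The libraries of the 2 groups did not overlap for 8 of the 10 genes, 4 above and 4 below, where 49.1% of all genes tested did not overlap (19.7% above, 29.4% below). The median log2 fold change of the 10 was -0.02, beside -0.04 for all genes tested. The median of its size without sign was 0.45, beside 0.19. The 10 genes were chosen with earlier results of these data known, so these are not independent comparisons with all genes. With 2 libraries in each group the smallest two-sided p of an exact permutation test is 0.333, so none was run.

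**Figure D1:**
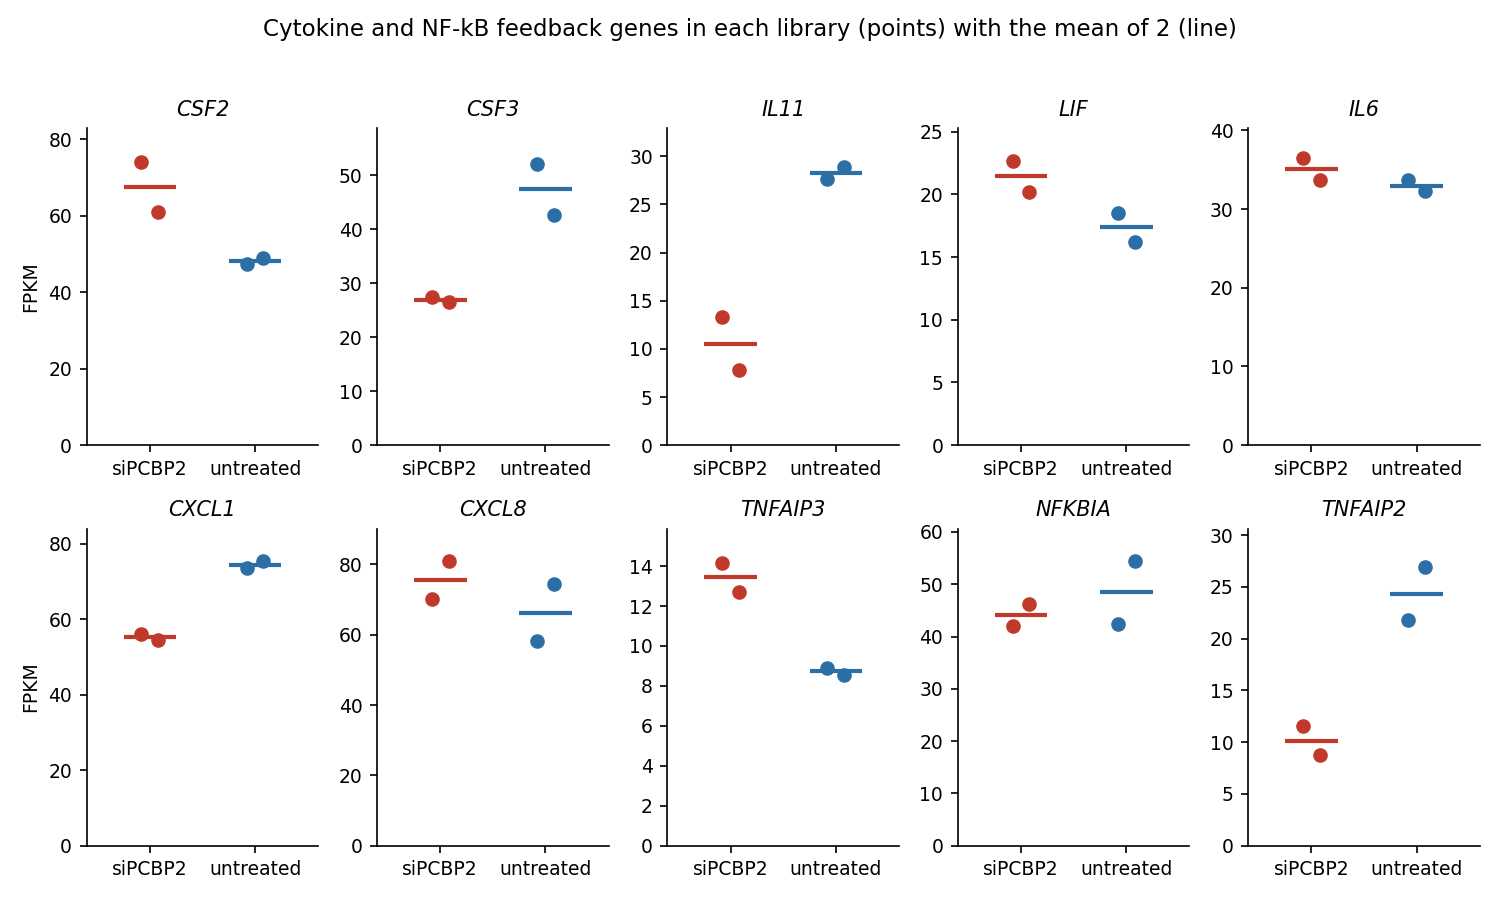
FPKM (vertical axis, from 0) of the 10 genes in each siPCBP2 library (red points, left) and each untreated library (blue points, right), with the mean of 2 as a line. Both siPCBP2 libraries lie below both untreated libraries for CSF3, IL11, CXCL1 and TNFAIP2, and above them for CSF2, LIF, IL6 and TNFAIP3. The groups overlap for CXCL8 and NFKBIA.

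The colony-stimulating factors stood on opposite sides of the comparison. CSF2 encodes GM-CSF, which drives the growth and activation of granulocytes, macrophages and dendritic cells. It measured 74.1 and 61.0 FPKM in siPCBP2 cells, against 47.5 and 49.0 FPKM in untreated cells. Both siPCBP2 libraries were above both untreated libraries, though they differed from each other by more than the untreated pair did. The mean was 67.5 ± 9.27 FPKM in siPCBP2 cells and 48.3 ± 1.11 FPKM in untreated cells (SD, n = 2 each), 1.40-fold higher, with a log2 fold change of 0.47 (SE 0.13, adjusted p = 0.229 by limma). Leaving out either untreated library took the unadjusted limma p of CSF2 past 0.05, to 0.0678 without untreated replicate 1 and 0.0507 without untreated replicate 2.

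CSF3 encodes G-CSF, which drives the production and release of neutrophils. It measured 27.4 and 26.5 FPKM in siPCBP2 cells, against 52.2 and 42.7 FPKM in untreated cells. The siPCBP2 libraries were nearly equal and both lay well under the lower untreated library. The mean was 27.0 ± 0.632 FPKM in siPCBP2 cells and 47.4 ± 6.71 FPKM in untreated cells (SD, n = 2 each), 1.76-fold lower, with a log2 fold change of -0.79 (SE 0.14, adjusted p = 0.151 by limma). CSF2 stood at 2.70 and 2.30 times the FPKM of CSF3 in the siPCBP2 libraries, against 0.910 and 1.15 times in the untreated libraries. They were at like levels in untreated cells and unequal in siPCBP2 cells. On hg38, CSF2 (ENSG00000164400) spans chr5:132073790-132076170 and CSF3 (ENSG00000108342) spans chr17:40015361-40017813, both on the plus strand. Neither shares exon bases with another annotated gene.

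IL11, LIF and IL6 belong to the cytokine family that signals through the shared receptor chain IL6ST. IL11, a cytokine induced by TGF-beta and linked to bone metastasis in breast cancer, had the lowest fold change of the 10. It measured 13.3 and 7.80 FPKM in siPCBP2 cells, against 27.6 and 28.9 FPKM in untreated cells. Both siPCBP2 libraries were under the untreated ones, and they differed 1.70-fold from each other, while the untreated libraries differed 1.05-fold. The mean was 10.5 ± 3.86 FPKM in siPCBP2 cells and 28.3 ± 0.896 FPKM in untreated cells (SD, n = 2 each), 2.68-fold lower, with a log2 fold change of -1.38 (SE 0.24, adjusted p = 0.151 by limma). The log2 fold change of IL11 was -1.73 without siPCBP2 replicate 1 and -1.04 without siPCBP2 replicate 2.

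LIF, which keeps embryonic stem cells undifferentiated in the mouse, measured 22.7 and 20.2 FPKM in siPCBP2 cells, against 18.5 and 16.2 FPKM in untreated cells. The groups did not overlap, but they came close to each other, and the 95% interval of the log2 fold change by limma ran from -0.05 to 0.63 (adjusted p = 0.376). IL6, the founding member of the family and a driver of the acute-phase response, measured 36.4 and 33.7 FPKM in siPCBP2 cells, against 33.7 and 32.3 FPKM in untreated cells. The lower siPCBP2 library and the higher untreated library of IL6 were nearly equal, and the interval ran from -0.20 to 0.37 (adjusted p = 0.728 by limma). LIF stood at 1.71 and 2.59 times the FPKM of IL11 in the siPCBP2 libraries and at 0.671 and 0.560 times in the untreated libraries. IL11 (ENSG00000095752) spans chr19:55364389-55370463 (minus strand) and shares no exon bases with another annotated gene. Exons of LIF overlap those of 2 antisense RNA genes, and exons of IL6 those of the coding gene STEAP1B and of 1 antisense RNA gene, all on the opposite strand. Nothing used here says whether the authors' counting used strand, so reads of these partners cannot be told apart.

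CXCL1 and CXCL8 are neutrophil-attracting chemokines of the same gene cluster on chromosome 4, and both act on the receptor CXCR2. CXCL1 measured 56.1 and 54.4 FPKM in siPCBP2 cells, against 73.6 and 75.4 FPKM in untreated cells. The libraries within each group were close and the groups stood apart. The mean was 55.3 ± 1.21 FPKM in siPCBP2 cells and 74.5 ± 1.27 FPKM in untreated cells (SD, n = 2 each), 1.35-fold lower, with a log2 fold change of -0.42 (SE 0.10, adjusted p = 0.198 by limma). CXCL8 encodes interleukin-8 and measured 70.1 and 80.9 FPKM in siPCBP2 cells, against 58.2 and 74.4 FPKM in untreated cells. The groups overlapped, and the 95% interval of the log2 fold change by limma ran from -0.20 to 0.59 (adjusted p = 0.571). CXCL2, the other listed chemokine of that cluster, measured 16.4 and 13.6 FPKM in siPCBP2 cells, against 17.9 and 17.9 FPKM in untreated cells (adjusted p = 0.443 by limma). CXCL1 (ENSG00000163739) spans chr4:73869393-73871242 and CXCL8 (ENSG00000169429) chr4:73740506-73743716, both on the plus strand. Of the 50-base words of the CXCL1 transcript, 5.73% also occur in a CXCL2 transcript and 0.573% in a CXCL3 transcript. How reads from those words were divided is not known.

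**Figure D2:**
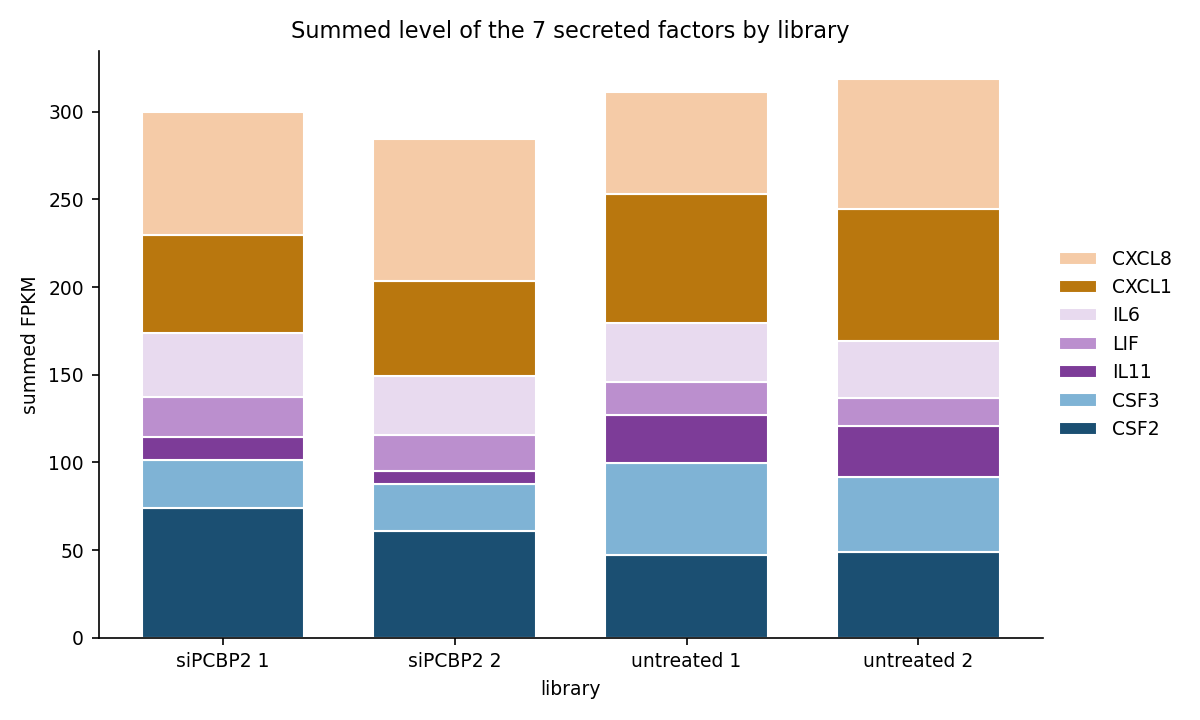
Summed FPKM of the 7 secreted factors (vertical axis) in each siPCBP2 library (left pair of bars) and each untreated library (right pair), with 1 colour per gene. The bars reach 300.1 and 284.5 FPKM in siPCBP2 cells and 311.3 and 318.8 FPKM in untreated cells, with a larger CSF2 segment and smaller CSF3, IL11 and CXCL1 segments in the siPCBP2 bars.

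The secreted factors were also taken as a sum, in which genes that differ in opposite directions offset each other. Their summed level was 300.1 and 284.5 FPKM in siPCBP2 cells, against 311.3 and 318.8 FPKM in untreated cells. CSF2 made up 24.7% and 21.4% of that sum in siPCBP2 cells and 15.3% and 15.4% in untreated cells. CSF3 made up 9.13% and 9.32% in siPCBP2 cells and 16.8% and 13.4% in untreated cells, and IL11 4.42% and 2.74% in siPCBP2 cells and 8.87% and 9.06% in untreated cells. Taken by class, the colony-stimulating factors together held 33.8% and 30.7% of the sum in siPCBP2 cells and 32.0% and 28.8% in untreated cells. The 3 interleukin-6 family cytokines held 24.1% and 21.7% in siPCBP2 cells and 25.6% and 24.3% in untreated cells. The chemokines held 42.1% and 47.6% in siPCBP2 cells and 42.3% and 47.0% in untreated cells. The class shares overlapped between the groups for the colony-stimulating factors and the chemokines, and did not for the interleukin-6 family. Taken singly, none of the 7 shares overlapped, although those of CXCL8 nearly met. They were 23.4% and 28.4% in siPCBP2 cells and 18.7% and 23.3% in untreated cells. The shares are parts of the same sum, so each depends on the others, and the FPKM of CXCL8 itself overlapped. In FPKM, 49.1% of all genes tested did not overlap between the groups. These sums are of FPKM, hold only the 7 genes, chosen with earlier results of these data known, and were given no test.

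The intracellular genes also stood on both sides. TNFAIP3 encodes A20, a ubiquitin-editing enzyme that shuts down NF-kB signalling after TNF or interleukin-1. It measured 14.2 and 12.7 FPKM in siPCBP2 cells, against 8.92 and 8.53 FPKM in untreated cells. Both siPCBP2 libraries were above both untreated libraries. The mean was 13.4 ± 1.03 FPKM in siPCBP2 cells and 8.72 ± 0.275 FPKM in untreated cells (SD, n = 2 each), 1.54-fold higher, with a log2 fold change of 0.57 (SE 0.14, adjusted p = 0.202 by limma). It was the least abundant of the 10 in untreated cells, where it ranked 5960 of 7698 listed genes, and ranked 4593 in siPCBP2 cells. NFKBIA encodes I-kappa-B-alpha, the inhibitor that holds NF-kB in the cytoplasm and is resynthesised as the first feedback. It measured 42.1 and 46.2 FPKM in siPCBP2 cells, against 42.3 and 54.5 FPKM in untreated cells. The groups overlapped, and the interval of the log2 fold change by limma ran from -0.51 to 0.27 (adjusted p = 0.717). The log2 fold change of NFKBIA turned to 0.057 without untreated replicate 2. A difference between A20 and I-kappa-B-alpha was not tested.

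TNFAIP2 encodes M-Sec, a protein related to the exocyst that promotes membrane nanotubes between cells. It had the smallest limma p of the 10. It measured 11.5 and 8.74 FPKM in siPCBP2 cells, against 21.8 and 26.9 FPKM in untreated cells. Both siPCBP2 libraries were far under the lower untreated library. The mean was 10.1 ± 1.96 FPKM in siPCBP2 cells and 24.4 ± 3.66 FPKM in untreated cells (SD, n = 2 each), 2.40-fold lower, with a log2 fold change of -1.19 (SE 0.19, adjusted p = 0.151 by limma). TNFAIP2 (ENSG00000185215) spans chr14:103123442-103137439 (plus strand) and NFKBIA (ENSG00000100906) chr14:35401511-35404749 (minus strand). TNFAIP3 (ENSG00000118503) spans chr6:137867188-137883312 (plus strand), and its exons overlap those of 1 antisense RNA gene on the opposite strand.

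**Figure D3:**
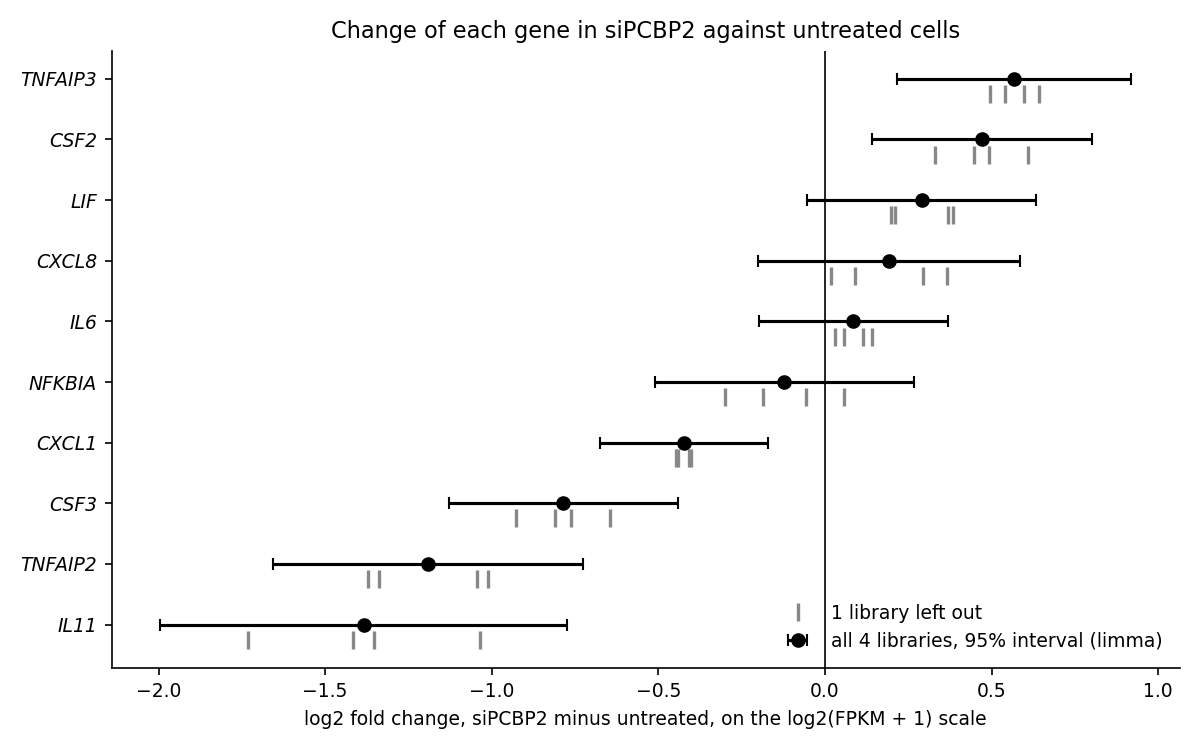
Log2 fold change of each gene, siPCBP2 minus untreated, on the log2(FPKM + 1) scale (horizontal axis). Black points and bars give the limma estimate and its 95% interval from all 4 libraries, and grey ticks the estimates with 1 library left out. The intervals of IL11, TNFAIP2, CSF3 and CXCL1 lie below 0 and those of CSF2 and TNFAIP3 above 0, before any adjustment over genes, and the ticks of NFKBIA lie on both sides of 0.

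The order of the levels differed between the groups. In siPCBP2 cells it ran from CXCL8 (75.5 FPKM) through CSF2 (67.5), CXCL1 (55.3), NFKBIA (44.1), IL6 (35.1), CSF3 (27.0), LIF (21.4), TNFAIP3 (13.4) and IL11 (10.5) to TNFAIP2 (10.1 FPKM). In untreated cells it ran from CXCL1 (74.5 FPKM) through CXCL8 (66.3), NFKBIA (48.4), CSF2 (48.3), CSF3 (47.4), IL6 (33.0), IL11 (28.3), TNFAIP2 (24.4) and LIF (17.4) to TNFAIP3 (8.72 FPKM). Among neighbours in the siPCBP2 order, the libraries of CXCL8 and CSF2, of TNFAIP3 and IL11, and of IL11 and TNFAIP2 overlapped. In the untreated order, CXCL1 and CXCL8 overlapped, and so did NFKBIA, CSF2 and CSF3 with one another. The median listed gene had a mean of 17.0 FPKM in untreated cells, so that the means of all of the 10 but TNFAIP3 were above it. LIF was close to that median, and its untreated replicate 2 (16.2 FPKM) was under it.

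The folds of the authors' deposited table run the other way, untreated over siPCBP2, so a fold above 1 means a lower level in siPCBP2 cells. In the authors' deposited table that fold was 2.67 for IL11, 2.39 for TNFAIP2, 1.76 for CSF3 and 1.35 for CXCL1. The p-values in the authors' deposited table were 0.0252 for LIF, 0.0365 for CXCL1, 0.0614 for TNFAIP2, 0.0906 for CSF2 and 0.0956 for IL11. They were 0.0968 for IL6, 0.221 for CSF3, 0.257 for TNFAIP3, 0.692 for NFKBIA and 0.943 for CXCL8. Only LIF and CXCL1 were thus under 0.05 by the authors' p-values, and LIF was not by the unadjusted limma p. CSF3, IL11, TNFAIP2, CSF2 and TNFAIP3 were under it by limma only. The smallest q-value among these genes in the authors' deposited table was 0.558, for LIF. The sources used here do not give the test behind them.

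The promoters of 8 of the 10 genes were read from RefSeq on GRCh38.p14, over the 250 bases before the RefSeq start. That start can lie inside the GENCODE span of the gene. For TNFAIP3 the stretch at chr6:137867182-137867211 reaches into the span (chr6:137867188-137883312), and its match lies within it. All NF-kB-type matches of IL6 lie inside the span of that gene (chr7:22725884-22732002). CSF3 and LIF had no entry in the promoter source used. Only the first listed window was read for each of the 8, while the shares set beside them count every window. Letters of the NF-kB type, GGG followed by any 5 bases and CC on either strand, occurred in 7 of the 8, beside 68.9% of the 9345 windows of listed genes and 54.4% of all 35116 windows of that length, so a match is common. Letters of the AP-1 type, TGANTCA on either strand, occurred in 2 of the 8, IL11 and CXCL8, beside 4.32% of windows of listed genes and 6.57% of all windows. A stretch is shown for genes above, below and overlapping between the groups, with the match in capitals on the strand of the gene.

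CSF2: ccacagttcaGGTAGTTCCCccgcctccct
TNFAIP3: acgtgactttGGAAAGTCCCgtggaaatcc
CXCL1: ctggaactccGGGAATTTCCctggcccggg
TNFAIP2: tgggcaggccGGGCGCGCCCagcccctggg
NFKBIA: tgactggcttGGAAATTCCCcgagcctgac
IL11: gcagggagggTGAGTCAggatgtgtca

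These lie at chr5:132073694-132073723 for CSF2, chr6:137867182-137867211 for TNFAIP3, chr4:73869304-73869333 for CXCL1, chr14:103123288-103123317 for TNFAIP2, chr14:35404811-35404840 (minus strand) for NFKBIA and chr19:55370543-55370569 (minus strand) for IL11. The first base of the match lies 85 bases before the RefSeq start in CSF2, 67 in TNFAIP3, 79 in CXCL1, 163 in TNFAIP2, 81 in NFKBIA and 96 in IL11. Genes with the NF-kB-type letters stood on both sides of the comparison. TNFAIP3 had 4 matches, IL6 and CXCL1 had 3 each and TNFAIP2 had 2, with matches that overlap each other counted separately.

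**Figure D4:**
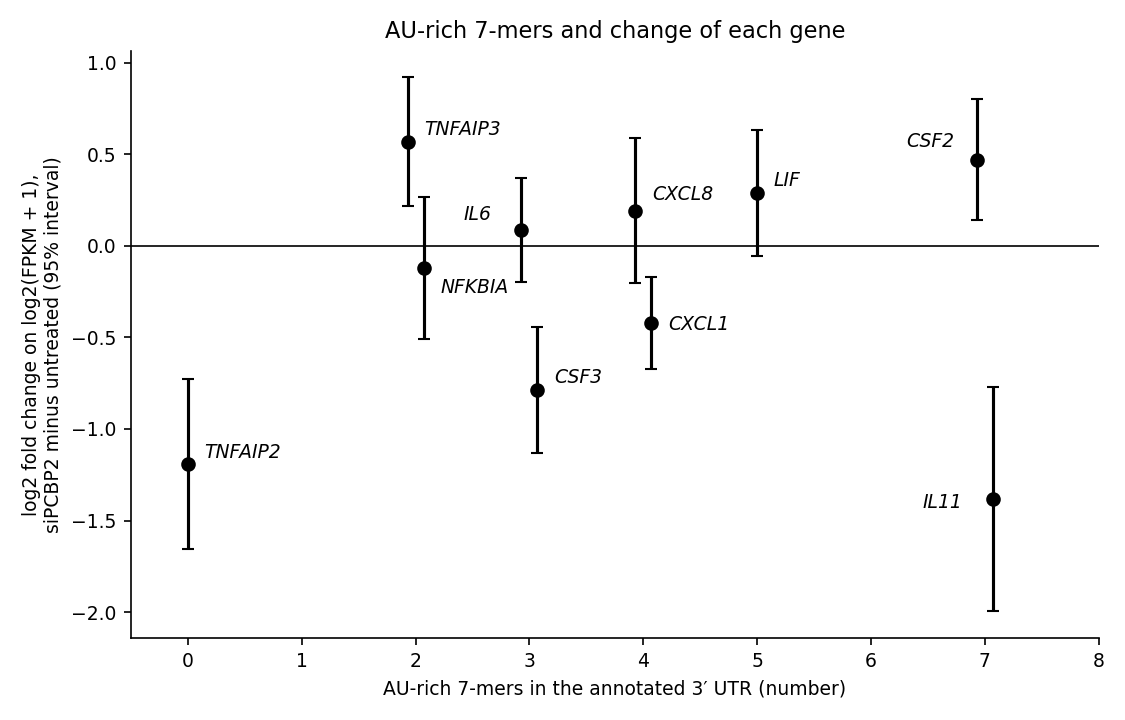
Number of AU-rich 7-mers in the annotated 3′ UTR (horizontal axis) and log2 fold change, siPCBP2 minus untreated, on the log2(FPKM + 1) scale (vertical axis) of each of the 10 genes, with the 95% interval by limma. Genes with the same number are set slightly apart. CSF2 and IL11, with 7 copies each, lie on opposite sides of 0.

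The number of AU-rich 7-mers did not order the 10 genes. CSF2 and IL11 had 7 copies each, and log2 fold changes of 0.47 and -1.38. CXCL8 and CXCL1 had 4 each, with 0.19 and -0.42, and TNFAIP2, with none, had -1.19. Over all genes tested, those with at least 3 copies (409 genes) were lower at an unadjusted limma p under 0.05 in 15.9% and higher in 6.60%, with a median log2 fold change of -0.10. Those with no copy (5200 genes) were lower in 8.79% and higher in 5.60%, with a median of -0.02. The median 3′ UTR was 4270 bases in the first set and 689.5 bases in the second, and the part of length was not tested. The C-rich 6-mer CCCTCC, letters of the kind that poly(C)-binding proteins recognise, occurred in the 3′ UTR of 5 of the 10, beside 39.4% of listed genes. It had 4 copies each in TNFAIP2 and LIF, 3 in CSF3, and 1 each in TNFAIP3 and NFKBIA.

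Of 15 genes in the list of mRNA decay factors, among them proteins that bind AU-rich elements, 14 were tested and none passed the threshold over all genes. At an unadjusted limma p under 0.05, 3 were higher and 1 was lower, beside 5.67% higher and 9.73% lower over all genes. ZFP36L1, which speeds the decay of AU-rich mRNAs, measured 147.2 and 111.3 FPKM in siPCBP2 cells, against 80.5 and 94.1 FPKM in untreated cells. RC3H2, a roquin protein that represses cytokine mRNAs, measured 28.5 and 28.7 FPKM in siPCBP2 cells, against 20.2 and 21.5 FPKM in untreated cells. CELF1, which binds GU-rich elements, measured 51.8 and 50.9 FPKM in siPCBP2 cells, against 35.1 and 42.9 FPKM in untreated cells. For these 3 genes both siPCBP2 libraries were above both untreated ones. HNRNPD, which encodes AUF1, a further AU-rich binding protein, was lower, with 94.5 and 122.4 FPKM in siPCBP2 cells, against 145.7 and 177.7 FPKM in untreated cells. The list had a median log2 fold change of -0.03, beside -0.04 for all genes tested.

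The count in each list of pathway genes is read against all genes tested, of which 15.4% were under an unadjusted limma p of 0.05 (5.67% higher, 9.73% lower). Of 45 cytokine and chemokine genes in the list, 20 were tested, 7 of them among the 10 genes above. The 13 others had a median log2 fold change of 0.25, beside -0.04 for all genes tested. Of these, 2 were higher and none lower at an unadjusted limma p under 0.05. The share called in either direction is near the 15.4% of all genes, of which 5.67% were higher. IL1B, an inducer of NF-kB, measured 42.6 and 38.4 FPKM in siPCBP2 cells, against 32.6 and 30.2 FPKM in untreated cells. EBI3, a subunit of interleukin-27 and interleukin-35, measured 7.92 and 6.47 FPKM in siPCBP2 cells, against 4.23 and 4.77 FPKM in untreated cells. The adjusted p was 0.276 for each by limma. The median over all 20 was 0.19, and 0.07 without untreated replicate 1.

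Of the 27 receptor genes in the list, 13 were tested, and 2 were higher and none lower at an unadjusted limma p under 0.05. The share called in either direction is near the 15.4% of all genes, of which 5.67% were higher. LTBR, the lymphotoxin beta receptor, measured 34.5 and 33.7 FPKM in siPCBP2 cells, against 24.3 and 23.3 FPKM in untreated cells (adjusted p = 0.181 by limma). IL1R1, the signalling receptor of interleukin-1, measured 11.1 and 11.8 FPKM in siPCBP2 cells, against 5.46 and 7.16 FPKM in untreated cells (adjusted p = 0.188 by limma). The receptor list as such had a median of -0.0016. Among receptors for the secreted factors, CSF2RA and IL6ST were tested, and CSF3R, IL11RA, LIFR, CXCR1 and CXCR2 were not analysed here. The receptor chains IL6R and CSF2RB, also in the list, are not described here. IL6ST measured 75.8 and 76.3 FPKM in siPCBP2 cells, against 67.7 and 78.9 FPKM in untreated cells, and CSF2RA 22.2 and 19.8 FPKM in siPCBP2 cells, against 19.1 and 19.3 FPKM in untreated cells; both were picked with their values known. In the JAK-STAT list downstream of these receptors, 7 of 19 genes were tested and none had an unadjusted limma p under 0.05. The median was -0.08, and -0.13 without siPCBP2 replicate 2 and -0.17 without untreated replicate 2. The smallest p-values there belonged to the kinase JAK1, with 34.6 and 33.5 FPKM in siPCBP2 cells and 40.2 and 40.6 FPKM in untreated cells, and to STAT6, with 22.9 and 19.1 FPKM in siPCBP2 cells and 24.7 and 27.4 FPKM in untreated cells.

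**Figure D5:**
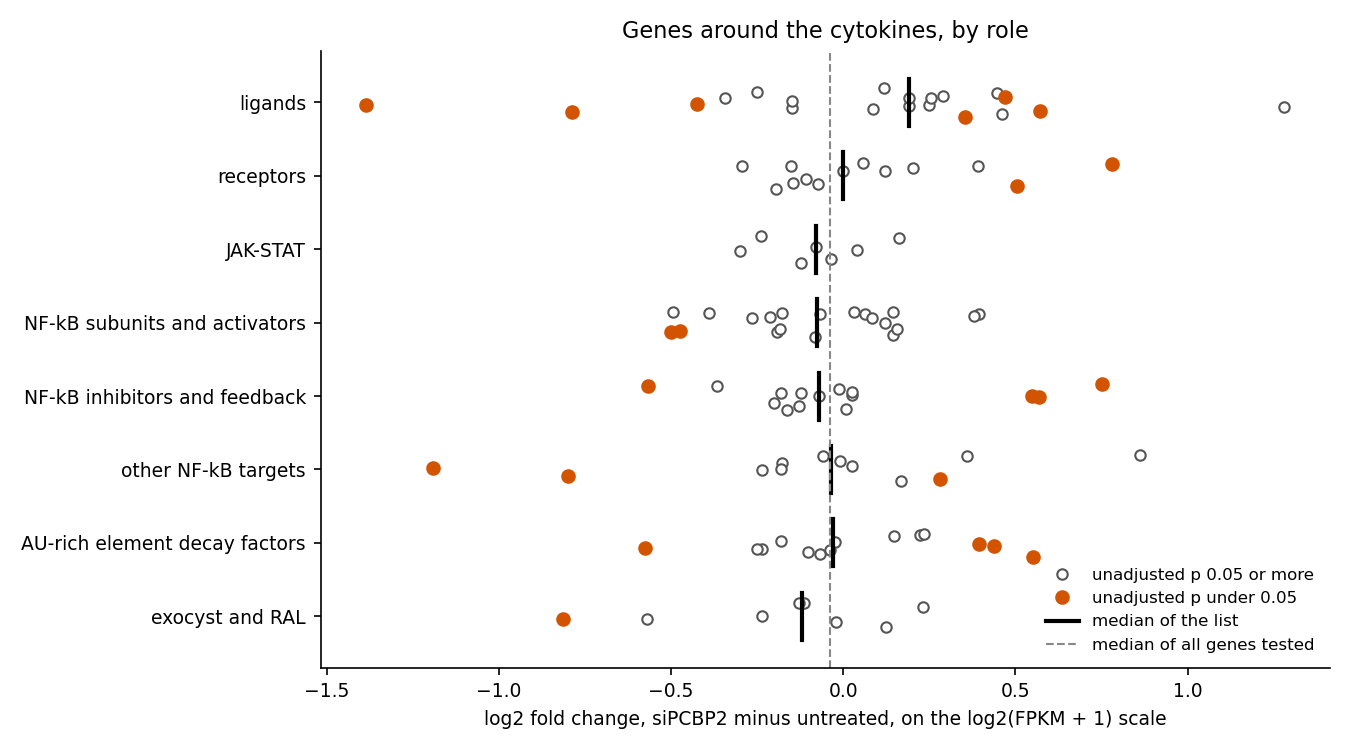
Log2 fold change, siPCBP2 minus untreated, on the log2(FPKM + 1) scale (horizontal axis) of each tested gene of 8 lists (rows). Filled points had an unadjusted limma p under 0.05, bars mark the median of the list and the dashed line the median of all genes tested. Filled points lie on both sides of 0 for ligands, NF-kB inhibitors, other NF-kB targets and AU-rich element decay factors. The lists include the genes chosen with earlier results of these data known. The filled ligand points below 0 are CSF3, IL11 and CXCL1, all of them among those chosen genes.

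Within the NF-kB pathway, 20 of 27 subunits and activators were tested, and 2 were lower and none higher at an unadjusted limma p under 0.05, near the 9.73% of all genes that were lower (median -0.08, and -0.14 without siPCBP2 replicate 1). These were kinases of the activating complexes. IKBKB measured 9.57 and 7.21 FPKM in siPCBP2 cells, against 11.6 and 12.8 FPKM in untreated cells, and IKBKE measured 11.7 and 9.61 FPKM in siPCBP2 cells, against 14.6 and 15.7 FPKM in untreated cells. Of 20 inhibitors and feedback genes 15 were tested, TNFAIP3 and NFKBIA among them, with 3 higher and 1 lower and a median of -0.07. Over all genes tested, 5.67% were higher and 9.73% lower at that p. Without TNFAIP3 and NFKBIA, 3 of the 13 others were under it in either direction. Besides TNFAIP3, the higher ones were NFKBIB and CYLD. NFKBIB, which encodes the inhibitor I-kappa-B-beta, measured 19.7 and 13.8 FPKM in siPCBP2 cells, against 8.69 and 10.1 FPKM in untreated cells. CYLD, a deubiquitinase that dampens NF-kB signalling, measured 18.8 and 25.7 FPKM in siPCBP2 cells, against 13.8 and 15.7 FPKM in untreated cells. TNIP3, a binding partner of A20, was lower, with 7.0 and 7.0 FPKM in siPCBP2 cells, against 10.1 and 11.6 FPKM in untreated cells. None of these genes passed the threshold over all genes tested.

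Of 19 other NF-kB targets 12 were tested, TNFAIP2 among them, with 1 higher and 2 lower at an unadjusted limma p under 0.05 (median -0.03). Over all genes tested, 5.67% were higher and 9.73% lower at that p. Without TNFAIP2, 2 of the 11 others were under it in either direction. TNFAIP8, an apoptosis regulator induced by TNF, measured 2.95 and 3.90 FPKM in siPCBP2 cells, against 8.48 and 5.18 FPKM in untreated cells. SDC4, a cell-surface proteoglycan, measured 128.8 and 126.5 FPKM in siPCBP2 cells, against 99.9 and 109.9 FPKM in untreated cells. Without siPCBP2 replicate 1 the median of this list was -0.24. In the list of exocyst and RAL genes, chosen for the relation of TNFAIP2 to the exocyst, 8 of 11 genes were tested, and 1 was lower and none higher. That gene, EXOC7, measured 19.5 and 18.8 FPKM in siPCBP2 cells, against 35.0 and 33.7 FPKM in untreated cells (adjusted p = 0.119 by limma). The list had a median of -0.12, which was -0.03 without siPCBP2 replicate 1 and -0.21 without siPCBP2 replicate 2 or untreated replicate 2.

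Likeness of pattern was measured as the Euclidean distance between log2(FPKM + 1) values over the 4 libraries, each gene centred on its own mean. Nothing is drawn from these distances about shared function or control. Nearest to CSF2 were MED15 (distance 0.0450) and MANEAL (0.0490), and nearest to CSF3 were MTDH (0.0409) and PLAU (0.0620). The nearest genes to IL11 were KRT10 (0.0667) and PDP2 (0.173), and to CXCL1 ERI1 (0.0210) and ARPC1A (0.0232). DDX17 (0.0246) and MYCBP2 (0.0331) were nearest to LIF, and BBX (0.0182) and ORC5 (0.0284) to CXCL8. MICB (0.0146) and RHOC (0.0294) were nearest to TNFAIP3, CORO2A (0.0361) and USP45 (0.0408) to NFKBIA, and HNRNPA1L2 (0.201) and PPP2R2D (0.257) to TNFAIP2. PLAU, which encodes urokinase, measured 55.5 and 54.1 FPKM in siPCBP2 cells, against 103.1 and 81.8 FPKM in untreated cells. MICB, a stress ligand for natural killer cells, measured 41.9 and 37.9 FPKM in siPCBP2 cells, against 26.9 and 26.2 FPKM in untreated cells.

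The nearest listed gene on each side was taken for each of the 10. Leaving out the 10 themselves, there were 18 such neighbours, with 0 higher and 0 lower at an unadjusted limma p under 0.05 and none past the adjusted threshold, a median log2 fold change of -0.04 and a range from -0.42 to 0.40. Around CSF3, MED24 lies 1.28 kilobases away and had a log2 fold change of 0.18, and PSMD3 lies 17.4 kilobases away and had 0.25, beside -0.79 for CSF3 itself. RPL28, 14.9 kilobases from IL11, had 0.21, and HSPBP1 on its other side 0.40, beside -1.38 for IL11. CXCL8 and CXCL1 are each other's nearest listed gene, 125.7 kilobases apart, with CXCL2 and ANKRD17 (-0.03) on their outer sides. The neighbours of TNFAIP2, CDC42BPB and EIF5, had -0.12 and 0.15, and those of TNFAIP3, BCLAF1 and PERP, had -0.29 and 0.15. For CSF2 they were FNIP1 (-0.05) and P4HA2 (-0.27), for LIF MTMR3 (-0.20) and TBC1D10A (0.07), for IL6 CDCA7L (-0.42) and TOMM7 (-0.08), and for NFKBIA PSMA6 (-0.07) and RALGAPA1 (0.30).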

How the data were processed

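Messenger RNA of MDA-MB-231 cells was captured on poly-T beads and sequenced, per the labels' protocols. The submitters' processing notes name build hg38, HISAT2 2.0, Trimmomatic 0.36, bedtools 2.26.0 and FastQC 0.11.2. The quantifier, the annotation and the use of strand are not given in the sources used here. Deposited expression values carry no unit and were taken as FPKM from their range. The deposited fold (a ratio) equals the untreated mean plus 0.1 over the siPCBP2 mean plus 0.1 for all 7698 genes (tolerance 1e-06), with the authors' p-values and q-values beside it.

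Genes with at least 1 FPKM in 2 libraries (7689) entered limma 3.58.1 (R 4.3.3) on the log2(FPKM + 1) scale, with a mean-variance trend, two-sided tests and Benjamini-Hochberg adjustment over all genes. The pseudocount understates changes of low genes. The script was tested on simulated data. Nothing says that libraries came from separate cultures, so p-values measure the spread between libraries, which may be technical. The 11 alternatives covered pseudocount, filters, scaling, trend, replicate block and each library left out. The 10 genes, the lists and the naming rule (list genes at an unadjusted p under 0.05, otherwise the 2 with the smallest p, nearest patterns and neighbours) were chosen with earlier results of these data known; the 3′ UTR letters were chosen after the values were seen. The genes with patterns nearest to IL6 are not reported here.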

Additional observations from a re-analysis of the deposited data

How the results depend on the processing

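Under the 11 alternatives, none of the 10 genes passed the adjusted threshold, and 9 of them kept the sign of their log2 fold change; NFKBIA ran from -0.30 without untreated replicate 1 to 0.057 without untreated replicate 2. LIF came under an unadjusted p of 0.05 after quantile normalization. CSF3, IL11, CXCL1, TNFAIP2 and TNFAIP3 kept an unadjusted limma p under 0.05 under each of the 11, and CSF2 under 9. The count of the 10 that were higher at that p was 1 to 2 with 1 library left out, and the count lower 4 to 4. Over all genes tested, 4 passed the adjusted threshold; 2 did after quantile normalization, 2 after scaling to 1 common total, 0 without a mean-variance trend and 0 with any 1 library left out. With the replicate number as a block, 0 genes passed, and the same 6 of the 10 were under an unadjusted p of 0.05. Same-numbered libraries deviated from their group means with a correlation of -0.09 across genes, and with 2 pairs the numbers are not taken to pair the libraries. With 1 library left out, the lone library of a group is assumed to vary like the other group; 272 to 526 genes were then higher and 360 to 771 lower at an unadjusted p under 0.05, with the fewest (272 and 360) without untreated replicate 1 and 289 and 426 without untreated replicate 2. List genes outside the 10 under that p numbered 18 with all libraries and 9 to 16 with 1 left out (9 without untreated replicate 2, 11 without untreated replicate 1). They numbered 23 after scaling to 1 common total, 22 after quantile normalization and 21 without a mean-variance trend. In the main fit, 15.4% of all genes tested were under that p, and the number tested in each list is given above. Whether the list genes differ from that share was not tested.

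PCBP2 kept a log2 fold change of -2.54 to -2.41 under all alternatives, with adjusted p-values from 0.0108 to 0.326. Other named genes that changed sign had small differences. After quantile normalization ANKRD17 had 0.016 and PSMA6 0.016. With 1 library left out, ANKRD17 ran from -0.15 to 0.088, CORO2A from -0.27 to 0.094, EIF5 from -0.25 to 0.55, FNIP1 from -0.12 to 0.023 and MED24 from -0.10 to 0.46. In the same way MTMR3 ran from -0.50 to 0.096, PSMA6 from -0.25 to 0.099, TBC1D10A from -0.21 to 0.36, TOMM7 from -0.29 to 0.12 and USP45 from -0.26 to 0.089. The cause of these shifts was not tested. With 1 library left out, the median of the AU-rich decay factors ran from -0.10 to 0.12 and that of the receptors from -0.11 to 0.13, that of the NF-kB inhibitors from -0.10 to 0.03 and that of other NF-kB targets from -0.24 to 0.01. Depth is unknown, and 2 libraries a group limit what can be detected.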
